A study of Mus musculus with 12 samples.

Results

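The cell division cycle is carried by 40 listed genes, all of which were found by exact symbol in both deposited tables of 23845 genes: 6 G1 cyclins and inhibitors of cyclin-dependent kinases (CDKs), 9 genes of S phase entry and origin licensing, 4 of DNA synthesis, 9 cyclins, kinases and checkpoint genes of G2 and mitosis, and 12 of the spindle, the chromosomes and mitotic exit. Their RNA was measured in microglia, the resident macrophages of the brain, isolated with Percoll gradients; the animals were 3 to 4 months old and of the C57BL6/J strain. The 4 groups, of 3 libraries each, were CPEB1-KO-LPS (mice labelled as CPEB1 knockout and given lipopolysaccharide for 24 h), CPEB1-KO (mice labelled as CPEB1 knockout, with no lipopolysaccharide), WT-LPS (wild type given lipopolysaccharide for 24 h) and WT (wild type, with no lipopolysaccharide). Each library came from 1 animal and was made by poly(A) selection. Lipopolysaccharide (LPS) is a bacterial outer membrane component that activates microglia, and CPEB1 is a protein that binds the cytoplasmic polyadenylation element (CPE) of mRNAs and controls their poly(A) tails and translation. The sources used here give neither the form of the CPEB1 deletion nor the cells in which it acts, nor the LPS dose or the sex of the animals.

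In a dividing cell, D cyclins start G1, E cyclins with CDK2 begin S phase, the MCM2 to MCM7 ring opens DNA at licensed origins, PCNA clamps the polymerase to the template, and cyclins A and B with CDK1 carry the cell into mitosis. The products of Cdkn1a (p21), Cdkn1b (p27) and Cdkn2c (p18) hold CDKs back. E2F factors drive S phase genes, while the DREAM and MuvB complexes act on G2 and mitotic genes through the cell cycle genes homology region (CHR). Adult microglia divide slowly in the healthy brain and can proliferate during inflammation. In frog oocytes, CPEB1 turns on the translation of cyclin mRNAs during meiosis.

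Expected counts summed to between 5.02 and 13.5 M per library, of which the 40 genes held between 2497 and 10049. Cpeb1 itself was at 34.6, 40.6 and 24.0 TPM (the length-scaled share of a library's transcripts) in CPEB1-KO-LPS, 17.6, 26.4 and 21.2 TPM in CPEB1-KO, 40.2, 24.1 and 45.1 TPM in WT-LPS, and 19.9, 15.5 and 43.2 TPM in WT. These levels overlapped between the genotypes (log2 difference averaged over treatments -0.33 ± 0.22 (SE), edgeR adjusted p = 0.486), so the mRNA level did not separate the labels, and "knockout" below means the libraries labelled CPEB1-KO or CPEB1-KO-LPS. All 12 microglial markers were detected, and their summed level was 1983 to 6624 TPM in CPEB1-KO-LPS, 4050 to 6631 TPM in CPEB1-KO, 2025 to 9556 TPM in WT-LPS and 8720 to 10046 TPM in WT. Summed over 11 markers, neuronal RNA was at 2113 to 4141 TPM in CPEB1-KO-LPS, 3367 to 4817 TPM in CPEB1-KO, 1886 to 5259 TPM in WT-LPS and 1170 to 3260 TPM in WT. It stood highest within their groups in WT-LPS replicate 1 (5259 TPM) and WT replicate 1 (3260 TPM). Of 15295 genes that passed the filter on low counts, 39 were listed genes, and Bub1, a spindle checkpoint kinase at 0.07 to 0.41 TPM, was not tested.

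The 40 genes had a count in every library, but most were low. Mean TPM over the 12 libraries was at least 10 for 7 genes, between 1 and 10 for 23 and under 1 for 10. Cdkn1a (145 TPM) and Pcna (99.1 TPM) were highest, followed by the D cyclin Ccnd3 (38.2 TPM), Cdkn1b (35.9 TPM), Ccnd1 (32.4 TPM), Mcm7 (17.8 TPM) and Ccne1 (12.2 TPM). Levels declined along the cycle: the median of the 6 G1 genes was 34.1 TPM, that of the 9 S phase entry genes 7.49 TPM, that of the 4 DNA synthesis genes 5.73 TPM, that of the 9 G2 and mitotic genes 2.11 TPM and that of the 12 spindle and exit genes 1.01 TPM. Genes commonly used to mark dividing cells were low, with Mki67 at a mean of 0.843 TPM, Top2a, the topoisomerase of condensing chromosomes, at 1.22 TPM, Cdk1 at 0.973 TPM and Ccnb1 at 0.80 TPM. The lowest were Bub1 (0.188 TPM), Cenpf, a kinetochore protein (0.197 TPM), and Cdc6, which loads the MCM ring (0.242 TPM).

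**Figure D1:**
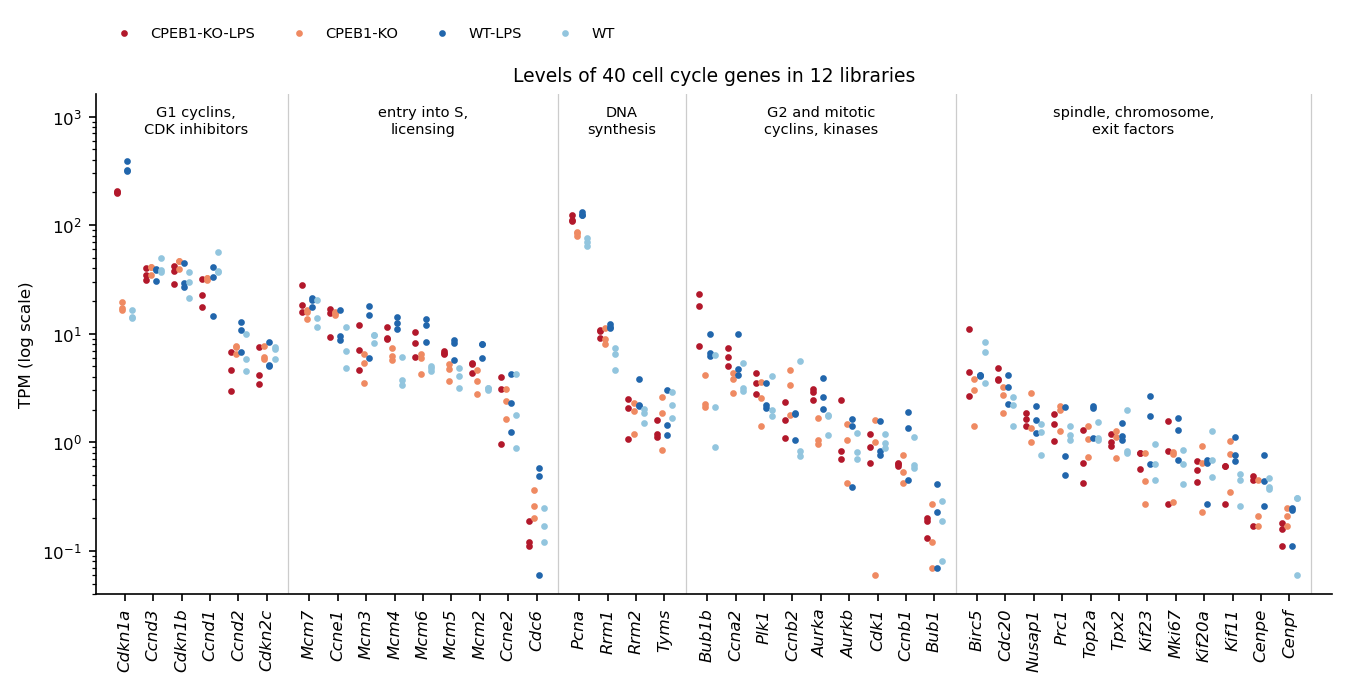
Levels of the 40 genes in TPM on a log axis, grouped by role and ordered within a role by mean level; each point is 1 of the 12 libraries, coloured by group. Cdkn1a and Pcna reach 100 TPM or more after LPS, whereas most spindle and exit genes lie near 1 TPM.

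LPS raised 8 of the 39 tested genes and lowered 0 when its effect was averaged over both genotypes (edgeR quasi-likelihood test, adjusted p under 0.05, 6 libraries against 6). Over all tested genes, 29.4% were called in either direction and 14.6% were called higher, so the 20.5% of listed genes called lay between these shares. The 8 were Cdkn1a, the licensing genes Mcm2, Mcm4, Mcm5 and Mcm6, the sliding clamp Pcna, the mitotic kinase Aurka and the checkpoint gene Bub1b. In CPEB1-KO-LPS against CPEB1-KO, Cdkn1a and Bub1b rose and 0 fell (2 of 39, with 6.22% of all genes called in either direction, 4.1% called higher and 2.12% called lower). In WT-LPS against WT, Cdkn1a, Mcm4 and Mcm2 rose and 0 fell (3 of 39, with 27.4% of all genes called in either direction and 12.4% called higher). The averaged comparison holds the same libraries as these comparisons within a genotype and is no separate evidence. Because these are bulk libraries, a change in the number of cells of a type and a change in RNA per cell cannot be told apart.

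The median log2 change of the 39 genes was 0.16 in CPEB1-KO-LPS against CPEB1-KO, 0.16 in WT-LPS against WT and 0.14 averaged, beside 0.00, -0.03 and -0.02 over all tested genes. Calls over all genes were split evenly by direction in the averaged comparison, with 49.7% higher, and 45.4% were higher in WT-LPS against WT. With limma on log2(TPM + 1), which has no rescaling between libraries, these shares were 66.1% and 75.7%, and the median of all genes moved to 0.12 and 0.28. On that scale 7 listed genes were called in WT-LPS against WT, all higher, where 75.7% of the calls over all genes were higher. The share of all genes called on that scale is not given here, so this count is no result about the listed genes. TPM did not overlap between CPEB1-KO-LPS and CPEB1-KO for 8 higher genes (20.5%, against 16.2% of all genes) and 1 lower gene (2.56%, against 15.0%). Between WT-LPS and WT, 10 genes were higher without overlap (25.6%, against 27.4% of all genes) and 0 were lower (against 10.8%). All 6 LPS libraries were above all 6 untreated libraries for 5 genes, namely Cdkn1a, Mcm4, Mcm5, Pcna and Aurka (12.8%, against 9.49% of all genes), and below them for 0 (against 3.63%).

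Cdkn1a, which encodes the CDK inhibitor p21, changed most. It had 199, 200 and 208 TPM in CPEB1-KO-LPS and 16.4, 17.3 and 19.6 TPM in CPEB1-KO, and 315, 323 and 393 TPM in WT-LPS and 14.0, 14.2 and 16.6 TPM in WT. Each LPS library was therefore above each untreated library, and all WT-LPS libraries were above all CPEB1-KO-LPS libraries. The log2 fold change was 3.56 ± 0.22 in CPEB1-KO-LPS against CPEB1-KO (11.8-fold, adjusted p = 2.36e-06) and 4.16 ± 0.23 in WT-LPS against WT (17.9-fold, adjusted p = 9.96e-07). Averaged over genotypes it was 3.86 ± 0.16 (adjusted p = 1.15e-08), which placed Cdkn1a at rank 2 of 15295 genes by p and at rank 107 by the size of the rise. The gene lies at chr17:29090976-29100727 on the plus strand of mm10 in 4 merged exon blocks of GENCODE M21, and 7.7% of its exon bases are shared with the transcript AC167363.2 on the opposite strand; whether the counting used strand is not stated.

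The other 5 G1 genes did not follow Cdkn1a. With all libraries, none of Ccnd1, Ccnd2, Ccnd3, Cdkn1b and Cdkn2c passed the test in any LPS comparison, and all 5 had an averaged log2 change below 0. Ccnd3 had 34.9, 31.4 and 40.1 TPM in CPEB1-KO-LPS, 41.1, 40.8 and 35.0 TPM in CPEB1-KO, 38.3, 30.7 and 39.8 TPM in WT-LPS and 37.4, 50.2 and 38.4 TPM in WT, with overlap between all groups (averaged log2 change -0.33 ± 0.18, adjusted p = 0.177). The lowest averaged change was that of Ccnd1, at -0.63 ± 0.28. Ccnd1 was called lower without WT-LPS replicate 2 (-0.84 averaged, adjusted p = 0.0473; -1.35 in wild type, adjusted p = 0.0452) or without CPEB1-KO-LPS replicate 3 (-0.83 averaged, adjusted p = 0.0438), and Ccnd3 was called lower in wild type without WT replicate 1 (-0.76, adjusted p = 0.0431). The group median over the 6 genes was -0.30 in CPEB1-KO-LPS against CPEB1-KO and -0.30 in WT-LPS against WT, where it was 0.02 with limma on log2(TPM + 1).

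Licensing of origins was the role with the largest share of calls: 4 of 9 genes rose in the averaged comparison (44.4%, beside 14.6% higher over all genes), with a group median of 0.43 log2 units. In CPEB1-KO-LPS against CPEB1-KO 0 of 9 were called (2 at an unadjusted p under 0.05, 0 by DESeq2 and limma), and in WT-LPS against WT 2 of 9 rose. All 4 encode subunits of the MCM ring, the replicative helicase. Mcm4 had 9.02, 9.16 and 11.5 TPM in CPEB1-KO-LPS and 5.68, 7.45 and 6.27 TPM in CPEB1-KO, and 12.5, 11.01 and 14.2 TPM in WT-LPS and 6.16, 3.73 and 3.39 TPM in WT. Its LPS libraries lay above its untreated libraries without overlap, and the averaged log2 change was 0.92 ± 0.18 (adjusted p = 0.00200), with 0.68 ± 0.25 in CPEB1-KO-LPS against CPEB1-KO (adjusted p = 0.129) and 1.15 ± 0.25 in WT-LPS against WT (adjusted p = 0.00545).

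Mcm2 had 5.31, 4.39 and 5.41 TPM in CPEB1-KO-LPS, 2.77, 4.64 and 3.65 TPM in CPEB1-KO, 6.02, 8.12 and 8.10 TPM in WT-LPS and 3.02, 3.14 and 3.13 TPM in WT. The wild-type groups did not overlap, while 1 CPEB1-KO library stood above 1 CPEB1-KO-LPS library. Mcm2 rose by 0.90 ± 0.28 in WT-LPS against WT (adjusted p = 0.0316) and by 0.70 ± 0.20 averaged (adjusted p = 0.0176), and was at 0.50 ± 0.28 in CPEB1-KO-LPS against CPEB1-KO (adjusted p = 0.334). Its call in wild type was lost without WT-LPS replicate 2 (adjusted p = 0.104), WT-LPS replicate 3 (0.0741), WT replicate 1 (0.0834) or WT replicate 3 (0.0763), and in a fit of the wild-type groups alone (0.0759).

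Mcm6 had 8.17, 6.07 and 10.4 TPM in CPEB1-KO-LPS, 5.98, 6.46 and 4.25 TPM in CPEB1-KO, 8.35, 13.7 and 12 TPM in WT-LPS and 5.08, 4.79 and 4.57 TPM in WT. Mcm5 had 6.54, 6.67 and 6.88 TPM in CPEB1-KO-LPS, 5.26, 4.77 and 3.67 TPM in CPEB1-KO, 5.68, 8.83 and 8.21 TPM in WT-LPS and 4.79, 3.16 and 4.11 TPM in WT. For Mcm5 the LPS libraries stood above the untreated libraries without overlap, and for Mcm6 this held in wild type but not in the knockout. Averaged over genotypes, Mcm6 rose by 0.76 ± 0.23 (adjusted p = 0.0240) and Mcm5 by 0.59 ± 0.19 (adjusted p = 0.0297). Both calls were lost without CPEB1-KO-LPS replicate 3 (adjusted p = 0.0533 for Mcm6 and 0.0593 for Mcm5), CPEB1-KO replicate 3 (0.0617 and 0.0802) or WT-LPS replicate 2 (0.0638 and 0.0787), and that of Mcm5 also without CPEB1-KO replicate 2 (0.0639) or WT-LPS replicate 3 (0.0547) and with the replicate number as a block (0.0539). In wild type alone Mcm6 was at 0.89 ± 0.33 (adjusted p = 0.0573) and Mcm5 at 0.59 ± 0.27 (adjusted p = 0.114), and both were called there without WT-LPS replicate 1 (1.16, adjusted p = 0.0261, and 0.84, adjusted p = 0.0328), Mcm6 also without CPEB1-KO-LPS replicate 2 (adjusted p = 0.0472) or replicate 3 (0.0309). With all libraries, Mcm6 was called in wild type by DESeq2 (adjusted p = 0.0362) and by edgeR with no filter on low counts (0.0466).

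The remaining licensing genes did not pass. Mcm7 had 28.2, 18.6 and 15.9 TPM in CPEB1-KO-LPS, 16.5, 15.8 and 13.8 TPM in CPEB1-KO, 21.2, 17.8 and 20.3 TPM in WT-LPS and 14.1, 11.6 and 20.3 TPM in WT, with overlapping groups (averaged log2 change 0.24 ± 0.16, adjusted p = 0.277). Exons of Mcm7 share 7.3% of their bases with Ap4m1 and 1.4% with Cops6, both on the opposite strand. Ccne1, which starts S phase with CDK2, had 16.9, 15.4 and 9.24 TPM in CPEB1-KO-LPS, 15.6, 15.0 and 15.9 TPM in CPEB1-KO, 16.7, 8.70 and 9.47 TPM in WT-LPS and 11.5, 4.79 and 6.97 TPM in WT, and its averaged LPS change was 0.05 ± 0.20 (adjusted p = 0.874). Mcm3 and Ccne2 were not called, and Cdc6 had the lowest averaged change of the role at -0.11 ± 0.49.

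**Figure D2:**
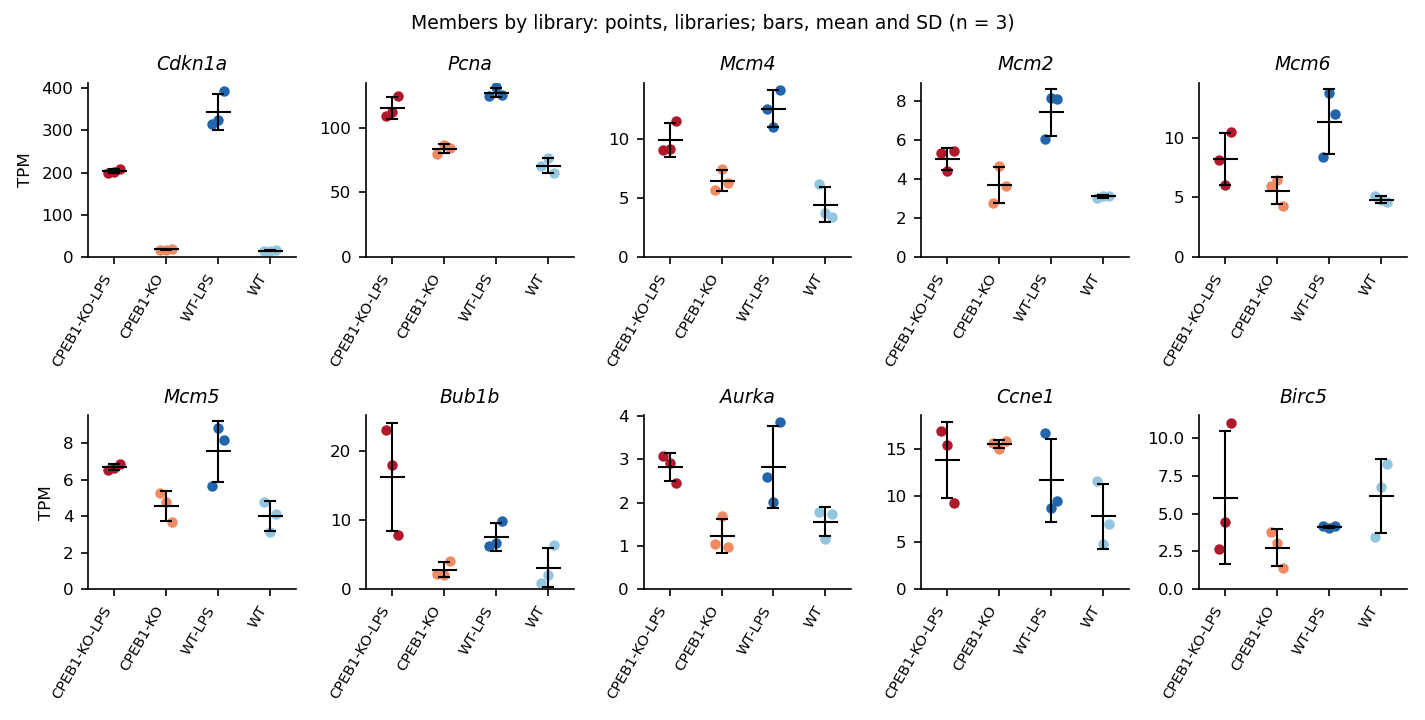
TPM of the 8 genes called after LPS and of Ccne1 and Birc5, which were not, in the 12 libraries; points are libraries, and black bars give the mean and SD of 3. Cdkn1a, Pcna, Mcm4, Mcm5 and Aurka separate the 6 LPS libraries from the 6 untreated ones, and Bub1b spreads widely within CPEB1-KO-LPS.

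Of the 4 DNA synthesis genes, Pcna rose in the averaged comparison (25%) and the other 3 did not pass by edgeR. Over all genes 14.6% were called higher there and 29.4% in either direction. Pcna had 109, 112 and 124 TPM in CPEB1-KO-LPS and 79.9, 86.9 and 84.5 TPM in CPEB1-KO, and 125, 131 and 125 TPM in WT-LPS and 70.6, 76.2 and 64.6 TPM in WT. No LPS library fell into the untreated range. The log2 change was 0.50 ± 0.15 averaged (1.42-fold, adjusted p = 0.0211), 0.53 ± 0.21 in CPEB1-KO-LPS against CPEB1-KO (adjusted p = 0.164) and 0.48 ± 0.21 in WT-LPS against WT (adjusted p = 0.101), and the averaged call was lost without WT-LPS replicate 2 (adjusted p = 0.0521). Pcna was called in wild type without WT replicate 2 (0.73, adjusted p = 0.0352). Rrm1, the large subunit of ribonucleotide reductase, had 9.11, 10.5 and 10.9 TPM in CPEB1-KO-LPS, 8.87, 11.4 and 8.12 TPM in CPEB1-KO, 11.4, 12.4 and 11.5 TPM in WT-LPS and 7.43, 6.57 and 4.67 TPM in WT. Its levels did not overlap between WT-LPS and WT but overlapped between the knockout groups. The log2 change was 0.56 ± 0.25 in WT-LPS against WT (adjusted p = 0.110) and 0.36 ± 0.17 averaged (adjusted p = 0.138). Tyms, thymidylate synthase, had the lowest averaged change of the role at -0.50 ± 0.35, and a pseudogene named after it is listed separately in the tables.

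Among 8 tested G2 and mitotic genes, Bub1b and Aurka rose in the averaged comparison (25%). Over all genes 14.6% were called higher there and 29.4% in either direction, so 25% lies between these shares. Bub1b encodes BUBR1, which delays anaphase until chromosomes are attached. It had 23.0, 17.96 and 7.78 TPM in CPEB1-KO-LPS and 2.25, 2.10 and 4.14 TPM in CPEB1-KO, and 6.23, 6.65 and 9.84 TPM in WT-LPS and 0.90, 2.10 and 6.40 TPM in WT. The knockout groups did not overlap, but CPEB1-KO-LPS replicate 3 lay far below the other two of its group, and WT replicate 3 lay above WT-LPS replicate 1. Behind these values stood 170 to 604 counts in CPEB1-KO-LPS, 49 to 98 in CPEB1-KO, 151 to 217 in WT-LPS and 20 to 85 in WT.

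Bub1b rose by 2.51 ± 0.55 in CPEB1-KO-LPS against CPEB1-KO (5.71-fold, adjusted p = 0.0160) and by 1.73 ± 0.39 averaged (adjusted p = 0.00505), and was at 0.94 ± 0.55 in WT-LPS against WT (adjusted p = 0.216). The difference of these responses was 1.58 ± 0.76 and did not pass (adjusted p = 0.339), so a larger response in the knockout was not shown. The knockout call was lost without CPEB1-KO-LPS replicate 1 (adjusted p = 0.0572), CPEB1-KO replicate 1 (0.0635) or CPEB1-KO replicate 2 (0.0930). In wild type Bub1b was called without WT replicate 3 (1.93, adjusted p = 0.0265). No exon of Bub1b (chr2:118598211-118641591, plus strand, 23 merged exon blocks) is shared with another annotated gene.

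Aurka, the kinase of the spindle poles, had 3.09, 2.91 and 2.46 TPM in CPEB1-KO-LPS and 1.05, 1.68 and 0.97 TPM in CPEB1-KO, and 2.60, 2.02 and 3.87 TPM in WT-LPS and 1.79, 1.17 and 1.73 TPM in WT. The LPS libraries stood above the untreated ones without overlap, on 8 to 41 counts each. Aurka rose by 0.86 ± 0.26 averaged (1.81-fold, adjusted p = 0.0237) and was at 1.22 ± 0.36 in CPEB1-KO-LPS against CPEB1-KO (adjusted p = 0.0646, and 0.0410 by DESeq2, which called it) and 0.50 ± 0.37 in WT-LPS against WT (adjusted p = 0.327). The averaged call was lost without CPEB1-KO replicate 1 (adjusted p = 0.0573), CPEB1-KO replicate 3 (0.0668) or WT-LPS replicate 3 (0.0636). Ccna2, the cyclin of S phase and G2, had 7.40, 6.13 and 5.07 TPM in CPEB1-KO-LPS, 4.36, 3.81 and 2.82 TPM in CPEB1-KO, 4.17, 4.78 and 9.85 TPM in WT-LPS and 2.96, 3.18 and 5.42 TPM in WT. Its groups overlapped in wild type only, and its averaged change of 0.56 ± 0.25 did not pass (adjusted p = 0.108), except without WT-LPS replicate 1 (0.70, adjusted p = 0.0422); 12.5% of its exon bases are shared with Exosc9 on the opposite strand. Ccnb2 had the lowest averaged change of the role at -0.91 ± 0.47, and Ccnb1, Cdk1, Aurkb and Plk1 were not called.

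With all libraries, the 12 spindle, chromosome and exit genes gave 0 calls in any LPS comparison by edgeR. Over all tested genes, 6.22% were called in CPEB1-KO-LPS against CPEB1-KO, 27.4% in WT-LPS against WT and 29.4% averaged. Of the 12 genes, 1 had an unadjusted p under 0.05 in CPEB1-KO-LPS against CPEB1-KO (Birc5), 0 in WT-LPS against WT and 0 averaged. DESeq2 called none of the 12 in any of these comparisons. Their median averaged log2 change was 0.07, with 7 of 12 above 0 and extremes of -0.48 ± 0.43 for Cenpf and 0.75 ± 0.40 for Kif23, a kinesin of the cytokinetic midzone, which was called without WT-LPS replicate 1 (0.98, adjusted p = 0.0467). Birc5 (survivin, of the chromosomal passenger complex) had 2.69, 4.45 and 11.1 TPM in CPEB1-KO-LPS, 3.79, 3.06 and 1.42 TPM in CPEB1-KO, 4.16, 4.06 and 4.17 TPM in WT-LPS and 3.49, 6.75 and 8.33 TPM in WT. Its high libraries were 1 of CPEB1-KO-LPS and 2 of WT, and the groups overlapped. Cdc20, which activates the anaphase-promoting complex, had 3.75, 3.83 and 4.88 TPM in CPEB1-KO-LPS, 1.85, 2.75 and 3.21 TPM in CPEB1-KO, 4.19, 2.27 and 3.24 TPM in WT-LPS and 2.63, 1.41 and 2.19 TPM in WT, for an averaged change of 0.51 ± 0.26 (adjusted p = 0.149). Mki67 had 0.27, 0.83 and 1.58 TPM in CPEB1-KO-LPS, 0.81, 0.78 and 0.28 TPM in CPEB1-KO, 0.68, 1.31 and 1.69 TPM in WT-LPS and 0.41, 0.85 and 0.63 TPM in WT, with overlap between all groups. Between 4 and 107 counts per library stood behind these 12 genes.

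**Figure D3:**
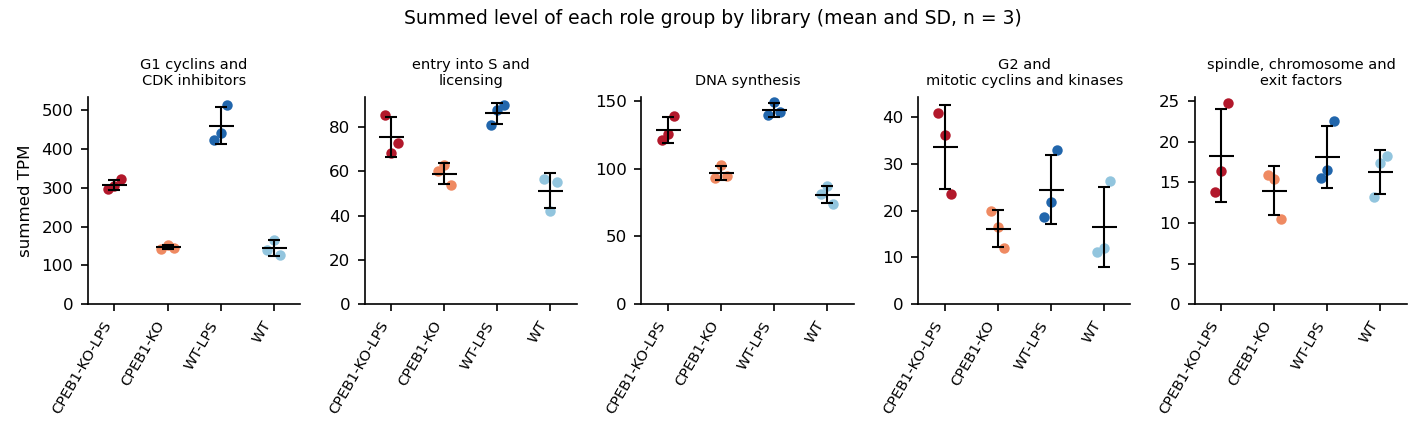
Summed TPM of the genes of each role by library; points are libraries, and black bars give the mean and SD of 3. Within each genotype the sums of the G1, S phase entry and DNA synthesis roles stand higher in the LPS libraries without overlap, that of G1 through Cdkn1a; the G2 and mitotic sums, which hold Bub1b, overlap in wild type but not in the knockout, and the spindle, chromosome and exit sums overlap in both.

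**Figure D4:**
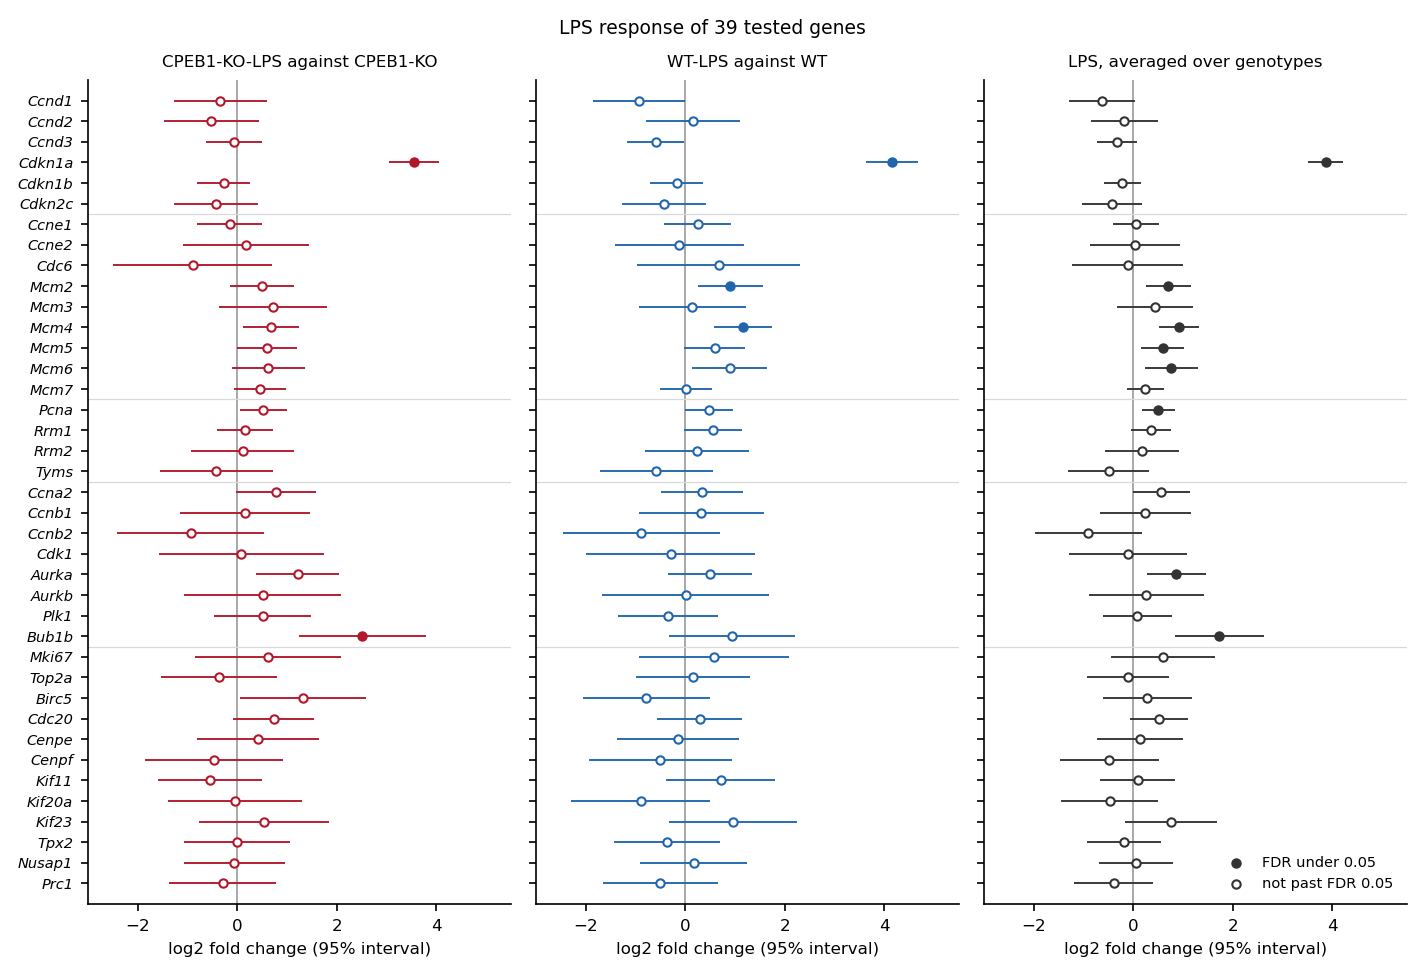
Log2 fold change with its 95% interval for the 39 tested genes in CPEB1-KO-LPS against CPEB1-KO (left), WT-LPS against WT (middle) and LPS averaged over genotypes (right), ordered by role; filled points passed an adjusted p of 0.05. Cdkn1a stands apart at 3.56, 4.16 and 3.86, and all filled points lie to the right of 0.

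Summed TPM by role gives the same libraries in another form. The G1 genes summed to 308 ± 13.5 TPM in CPEB1-KO-LPS, 147 ± 4.30 TPM in CPEB1-KO, 460 ± 47.4 TPM in WT-LPS and 144 ± 20.5 TPM in WT (SD, n = 3 each). Without Cdkn1a, the other 5 G1 genes summed to 105 ± 8.86 TPM in CPEB1-KO-LPS, 129 ± 4.58 TPM in CPEB1-KO, 116 ± 5.75 TPM in WT-LPS and 129 ± 21.6 TPM in WT, so the higher G1 sum after LPS rested on Cdkn1a. The S phase entry genes summed to 75.4 ± 8.86 TPM in CPEB1-KO-LPS, 58.9 ± 4.81 TPM in CPEB1-KO, 86.1 ± 4.73 TPM in WT-LPS and 51.2 ± 7.94 TPM in WT. The G2 and mitotic genes summed to 33.6 ± 8.91 TPM in CPEB1-KO-LPS, 16.1 ± 3.88 TPM in CPEB1-KO, 24.5 ± 7.45 TPM in WT-LPS and 16.4 ± 8.52 TPM in WT, without overlap between the knockout groups and with overlap in wild type. Without Bub1b, the other 8 summed to 17.3 ± 1.25 TPM in CPEB1-KO-LPS, 13.3 ± 4.90 TPM in CPEB1-KO, 16.9 ± 5.49 TPM in WT-LPS and 13.3 ± 5.69 TPM in WT, with overlap in both genotypes. The spindle and exit genes summed to 18.3 ± 5.73 TPM in CPEB1-KO-LPS, 13.9 ± 3.02 TPM in CPEB1-KO, 18.2 ± 3.80 TPM in WT-LPS and 16.2 ± 2.71 TPM in WT, and the libraries of CPEB1-KO-LPS and CPEB1-KO overlapped, as did those of WT-LPS and WT.

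Other genes of the cycle were taken from 5 lists, with 115 tested genes that are not among the 40. In the averaged LPS comparison 21 of them rose and 9 fell (26.1%, beside 29.4% of all genes). In CPEB1-KO-LPS against CPEB1-KO 11 rose and 2 fell (11.3%, beside 6.22% of all genes), and in WT-LPS against WT 11 rose and 11 fell (19.1%, beside 27.4%). The list of p53 targets and stress arrest had 7 of 15 higher and 0 lower on average (46.7%, beside 14.6% higher over all genes). Among them were Gadd45b, a stress sensor that binds CDK1 (2.19 ± 0.23), Trp53inp1 (1.14 ± 0.24), Plk3 (0.97 ± 0.22) and Mdm2, the p53 ubiquitin ligase (0.56 ± 0.13). In CPEB1-KO-LPS against CPEB1-KO, 2 of the 15 rose and 1 fell (20%, beside 6.22% of all genes). The lower gene was Zmat3 (-0.78 ± 0.20, edgeR adjusted p = 0.0373). In WT-LPS against WT, 6 of the 15 rose and 0 fell (40%, beside 27.4%). Trp53inp1 averaged 8.04 TPM in CPEB1-KO-LPS, 5.73 TPM in CPEB1-KO, 18.3 TPM in WT-LPS and 4.30 TPM in WT.

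The replication list had 10 of 36 higher and 5 lower on average (41.7%). Beside these averaged calls and those of the lists that follow, 29.4% of all genes were called, 14.6% higher and 14.8% lower. The genotypes differed in direction for the replication list. In CPEB1-KO-LPS against CPEB1-KO 6 rose and 0 fell (16.7%, beside 6.22% of all genes). In WT-LPS against WT 3 rose and 6 fell (25%, beside 27.4%). In the difference of responses 0 of 36 were called (6 at an unadjusted p under 0.05). On average, the licensing factor Cdt1 rose by 1.68 ± 0.24, the flap endonuclease Fen1 by 1.34 ± 0.21 and the polymerase subunit Pole by 1.29 ± 0.25. The clamp loader subunit Rfc2 changed by -0.78 ± 0.14. Cdt1 averaged 7.26 TPM in CPEB1-KO-LPS, 2.85 TPM in CPEB1-KO, 12.5 TPM in WT-LPS and 2.50 TPM in WT. Of 28 mitosis genes 2 rose and 0 fell (7.14%). They were Kif2c, a microtubule depolymerase of the centromere (4.06 ± 0.54), and the condensin subunit Smc4 (0.52 ± 0.15). Kif2c averaged 4.78 TPM in CPEB1-KO-LPS, 0.333 TPM in CPEB1-KO, 4.03 TPM in WT-LPS and 0.180 TPM in WT. Among 18 other CDKs, cyclins, phosphatases and inhibitors 1 rose and 3 fell (22.2%). The inhibitor Cdkn1c (p57) was at -2.25 ± 0.23, Ccng2 at -0.64 ± 0.17, Pkmyt1 at 0.61 ± 0.20 and Cdk4 at -0.45 ± 0.15. Of 18 E2F and DREAM genes, Lin54 rose by 0.61 ± 0.17 and E2f6 changed by -0.63 ± 0.15 (11.1% called).

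Markers of other cells moved with LPS too, and their part in these results was not tested. In the averaged comparison 7 of 12 microglial markers, 5 of 7 of oligodendrocyte precursors, 4 of 4 of the choroid plexus, 4 of 6 of lymphocytes and 3 of 4 erythroid markers fell. The calls were 2 of 6 lower for oligodendrocytes, 1 of 7 lower for neutrophils, 1 of 5 higher for astrocytes, 3 of 6 higher and 1 lower for endothelium, and 0 of 11 for neurons (0 at an unadjusted p under 0.05), beside 14.6% higher and 14.8% lower over all genes. Within the genotypes, the shares over all genes differed. In CPEB1-KO-LPS against CPEB1-KO 4.1% were called higher and 2.12% lower. In WT-LPS against WT 12.4% were called higher and 14.9% lower, so fewer calls in the knockout were not particular to these markers. Neuronal markers had a median log2 change of -0.31 in CPEB1-KO-LPS against CPEB1-KO (0 of 11 called by edgeR, 0 at an unadjusted p under 0.05, 11 below 0) and 0.58 in WT-LPS against WT (1 of 11 called, 11 above 0). Erythroid markers had 0 of 4 called in the knockout (median 0.03, 0 at an unadjusted p under 0.05) and 4 of 4 lower in wild type (median -2.86). The erythroid sum was 7051, 11851 and 61141 TPM in CPEB1-KO-LPS and 27877 to 37849 TPM in CPEB1-KO. CPEB1-KO-LPS replicate 3 thus lay above all CPEB1-KO libraries, and replicates 1 and 2 lay below them. Replicate 3 also had the highest microglial sum (6624 TPM) and the lowest neuronal sum (2113 TPM) of CPEB1-KO-LPS. Lymphocyte markers had 0 of 6 called in the knockout (median -1.28, 3 at an unadjusted p under 0.05) and 4 of 6 lower in wild type (median -2.90). Endothelial markers had 1 of 6 lower in the knockout and 3 of 6 higher in wild type, and monocyte markers 1 of 4 lower in the knockout and 3 of 4 higher in wild type. Microglial markers were lower for 2 of 12 in the knockout and 6 of 12 in wild type. In the difference of responses, 0 genes of these lists were called by edgeR; at an unadjusted p under 0.05 there were 4 of 4 erythroid, 2 of 11 neuronal, 2 of 6 endothelial, 1 of 6 lymphocyte, 1 of 7 oligodendrocyte precursor, 1 of 4 monocyte and 1 of 12 microglial markers. Averaged over genotypes, 3 of 4 monocyte markers rose and 1 fell, and their sum was 92.6 to 146 TPM in CPEB1-KO-LPS, 13.8 to 80.2 TPM in CPEB1-KO, 235 to 481 TPM in WT-LPS and 33.7 to 55.4 TPM in WT. Neural progenitor and neuroblast markers, which could bring dividing cells, had 0 of 9 called by edgeR (2 at an unadjusted p under 0.05), with a sum of 24.8 to 63.3 TPM in CPEB1-KO-LPS, 40.05 to 49.95 TPM in CPEB1-KO, 23.4 to 43.6 TPM in WT-LPS and 12.8 to 30 TPM in WT. No gene of these lists was at 0 in every library. Without WT-LPS replicate 1 and WT replicate 1, the libraries of their groups with the most neuronal RNA, the called genes were the same 8 averaged, the same 3 in wild type and the same 2 in the knockout.

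Between genotypes, 0 of the 39 genes were called by edgeR in any comparison. In CPEB1-KO-LPS against WT-LPS (0.00654% of all genes called), 4 had an unadjusted p under 0.05 and the lowest adjusted p was 0.379, that of Cdkn1a. In CPEB1-KO against WT (0.0327%), 3 had an unadjusted p under 0.05 and the lowest adjusted p was 0.223, that of Mcm3. Averaged over treatments (0.124% called in either direction, 0.0327% higher and 0.0915% lower), 6 had an unadjusted p under 0.05 and the lowest adjusted p was 0.339, that of Cdkn1a and Mcm3. The comparisons share libraries with each other and with those of LPS. DESeq2 and limma on TPM also called 0 in each of these comparisons.

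The intervals show how large a difference these libraries leave room for. Averaged over treatments, 19 of 39 genes had a 95% interval that lay within 1 log2 unit on either side of 0, among them Pcna (-0.42 to 0.26), Mcm4 (-0.42 to 0.40) and Cdkn1a (-0.71 to -0.06). For the other 20 a difference of 1 log2 unit or more lies within the interval. The extremes were Kif23 at -0.94 ± 0.40 and Ccne1 at 0.50 ± 0.20. The median over the 39 genes was -0.25, beside 0.01 over all tested genes. By role the averaged medians were -0.36 for G1, -0.12 for S phase entry, -0.22 for DNA synthesis, -0.04 for G2 and mitosis and -0.32 for spindle and exit. Cell type markers shifted too, with 0 called. All 12 microglial markers were below 0 averaged over treatments (median -0.84, 5 at an unadjusted p under 0.05). All 11 neuronal markers were above 0 (median 0.51, 2 at an unadjusted p under 0.05). These medians were -1.16 and 0.87 in CPEB1-KO against WT, and -0.56 and 0.08 in CPEB1-KO-LPS against WT-LPS. The part of cell content in the differences between genotypes was not tested.

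Cdkn1a after LPS was at 203 ± 4.76 TPM in CPEB1-KO-LPS and 344 ± 43.1 TPM in WT-LPS (SD, n = 3 each), without overlap (log2 difference -0.68 ± 0.20, unadjusted p = 0.00398, adjusted p = 0.379). Without LPS it was at 17.8 ± 1.64 TPM in CPEB1-KO and 14.9 ± 1.46 TPM in WT, higher in CPEB1-KO by mean TPM, while the log2 difference fitted to TMM-scaled counts was -0.08 ± 0.20 (adjusted p = 0.846). In CPEB1-KO against WT the median of all genes was 0.26 on the log2(TPM + 1) scale and -0.03 in the edgeR fit. TPM of 6 genes was lower without overlap in CPEB1-KO-LPS than in WT-LPS (15.4%, against 8.75% of all genes), namely Cdkn1a, Ccnd2, Mcm2, Pcna, Rrm1 and Kif11, and 0 were higher (against 3.73%). In CPEB1-KO against WT, Cdkn1b, Ccne1, Pcna and Rrm1 had higher TPM without overlap (10.3%, against 26.7%) and Ccnd1 and Mcm3 lower (5.13%, against 5.09%). The fitted log2 difference of Pcna was of the other sign, at -0.10 ± 0.21. Ccne1 averaged 15.5 ± 0.437 TPM in CPEB1-KO and 7.76 ± 3.44 TPM in WT (log2 difference 0.70 ± 0.29, adjusted p = 0.234).

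When WT-LPS replicate 1 and WT replicate 1 were left out together, a choice made after the data were seen, Ccne1 was called in CPEB1-KO against WT (0.93 ± 0.23, adjusted p = 0.0248). Averaged over treatments 5 genes were then called: Ccne1 was higher in the knockout (0.74 ± 0.16), and Cdkn1a (-0.55 ± 0.14), Mcm3 (-1.16 ± 0.33), Kif23 (-1.28 ± 0.37) and Ccnd1 (-0.85 ± 0.25) were lower. In that fit 2193 of 15489 genes (14.2%) were called, 8 of 11 neuronal markers were higher in the knockout and 4 of 12 microglial markers were lower. In neuronal RNA, WT replicate 1 (3260 TPM) was the WT library nearest to CPEB1-KO (3367 to 4817 TPM), so leaving it out widened that difference between the groups. The remaining WT libraries without LPS were at 1170 and 1405 TPM, and were the shallowest of the series, at 5.02 and 5.4 M. The part of cell composition and of depth in these differences was not tested.

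**Figure D5:**
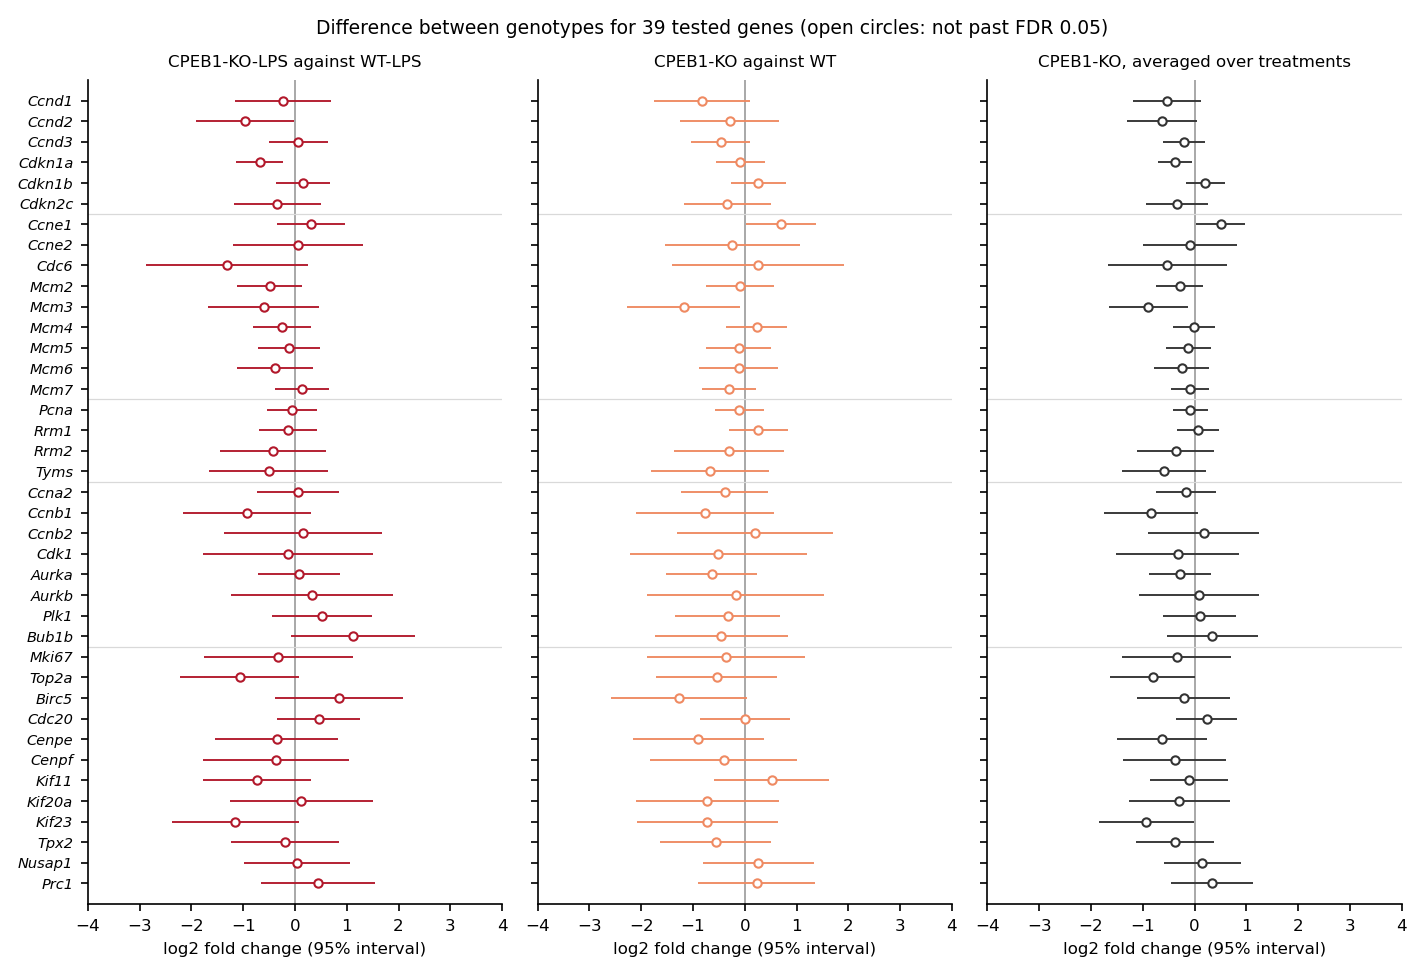
Log2 difference between genotypes with its 95% interval for the 39 tested genes in CPEB1-KO-LPS against WT-LPS (left), CPEB1-KO against WT (middle) and CPEB1-KO averaged over treatments (right), ordered by role. All points are open, because 0 genes passed an adjusted p of 0.05.

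No difference in the LPS response between genotypes was called for the 39 genes (edgeR, 0 called, 0.00654% of all genes; 1 at an unadjusted p under 0.05; 0 by DESeq2 and limma). The lowest adjusted p was 0.244, that of Birc5, with a response of 1.33 ± 0.55 in the knockout and -0.78 ± 0.55 in wild type and a difference of 2.11 ± 0.78. For Cdkn1a the difference of responses was -0.60 ± 0.28 (adjusted p = 0.333). With a median SE of 0.64 log2 units for this difference, 3 of 39 genes had an interval within 1 log2 unit of 0. Of the 115 other genes of the cycle, 0 were called in CPEB1-KO-LPS against WT-LPS (16 at an unadjusted p under 0.05), in CPEB1-KO against WT (20) and in the difference of responses (19), and 1 was called averaged over treatments. This was Anln, the midzone scaffold anillin, which averaged 24.2 TPM in CPEB1-KO-LPS, 20.2 TPM in CPEB1-KO, 13.8 TPM in WT-LPS and 8.01 TPM in WT (log2 difference 0.93 ± 0.15, adjusted p = 0.0307). Anln is also made by myelinating oligodendrocytes, whose 6 markers had 0 calls in that comparison (1 at an unadjusted p under 0.05). Over all genes 0.124% were called there, so 0 of 6 is near that share. The part of oligodendrocytes in the Anln difference was not tested.

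The promoters of the genes that rose together were compared with that of Cdkn1a, since MCM genes and Cdkn1a rose by different amounts. RefSeq windows of 250 bases before the first listed start of a gene (GRCm38.p6) were at hand for 32 of the 40 genes. Other starts were not searched. In the windows below, printed 5′ to 3′ on the strand of the gene, capitals mark CCAAT, the CHR letters TTTGAA, the E2F-like letters TTCCCGC or TTGGCGC, the GC box GGGCGG, and TATAAA, each also read on the opposite strand; E2F-like and CCAAT letters can share bases.
Cdkn1a, chr17:29090729-29090978, + strand: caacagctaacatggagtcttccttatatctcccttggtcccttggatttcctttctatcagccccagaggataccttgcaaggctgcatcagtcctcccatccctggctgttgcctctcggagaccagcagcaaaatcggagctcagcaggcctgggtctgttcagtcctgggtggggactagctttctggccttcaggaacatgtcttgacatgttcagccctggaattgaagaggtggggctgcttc
Mcm5, chr8:75109259-75109508, + strand: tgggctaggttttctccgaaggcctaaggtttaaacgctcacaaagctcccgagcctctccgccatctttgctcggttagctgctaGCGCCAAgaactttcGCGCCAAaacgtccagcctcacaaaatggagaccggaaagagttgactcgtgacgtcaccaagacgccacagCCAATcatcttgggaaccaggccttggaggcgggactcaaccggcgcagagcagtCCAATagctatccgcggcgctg
Mcm6, chr1:128359706-128359955, - strand: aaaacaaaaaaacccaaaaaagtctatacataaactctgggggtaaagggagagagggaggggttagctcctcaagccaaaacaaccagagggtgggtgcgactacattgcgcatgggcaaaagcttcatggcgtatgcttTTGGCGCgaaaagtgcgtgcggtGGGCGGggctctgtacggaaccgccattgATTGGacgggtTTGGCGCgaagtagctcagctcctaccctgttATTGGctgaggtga
Mki67, chr7:135716380-135716629, - strand: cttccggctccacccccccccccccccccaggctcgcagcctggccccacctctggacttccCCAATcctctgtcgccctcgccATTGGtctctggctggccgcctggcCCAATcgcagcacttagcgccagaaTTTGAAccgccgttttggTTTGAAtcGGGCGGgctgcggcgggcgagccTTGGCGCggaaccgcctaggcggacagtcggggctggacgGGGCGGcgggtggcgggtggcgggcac

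The window of Cdkn1a, before its first listed start, held none of these letters. Other motifs, such as p53 sites, were not searched, so the window may hold other elements. The windows of Mcm5 and Mcm6 held 2 E2F-like and 2 CCAAT matches each, and that of Mki67, whose RNA did not change detectably, held 2 CHR, 3 CCAAT and 1 E2F-like match. CCAAT occurred in 24 of 32 windows (75.0%), against 36.0% of the windows of 11473 tested genes. E2F-like letters occurred in 9 of 32 (28.1%, against 9.8%), CHR letters in 7 of 32 (21.9%, against 10.5%), the GC box in 23 of 32 (71.9%, against 57.2%) and TATAAA in 0 of 32 (against 6.5%). By role, E2F-like letters were found in 4 of 7 S phase entry windows and 1 of 10 spindle and exit windows, and CHR letters in 1 of 7 and 4 of 10. These matches describe letters only. No share was tested, and the windows of Pcna, Bub1b, Aurka and Mcm2, whose RNA rose, held no E2F-like letters.

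Because CPEB1 binds the CPE near the end of mRNAs, the last 100 bases of the 3′ UTR were searched on the mRNA strand for TTTTAT or TTTTAAT. For each gene only the transcript with the longest 3′ UTR was used, so the ends of shorter 3′ UTRs were not searched. Of 31 listed genes with a 3′ UTR of at least 100 bases matched to RefSeq, 8 held a match (25.8%, against 19.3% of 13507 tested genes), and 5 also had AATAAA or ATTAAA in the last 50 bases (16.1%, against 15.9%). The matches of Bub1b, Aurka and Mcm2, which rose after LPS, and of Ccne1 and Mcm7, the highest S phase entry genes, are shown in 30 bases of mm10, with the CPE letters in capitals. Bub1b held 2 matches, of which 1 is shown. Tyms, Cenpe and Kif11, which were not called after LPS, also held a match. Cdkn1a, Pcna, Mcm5 and Mcm6, which rose, held none in these 100 bases, as did the cyclins Ccnb1 and Ccnb2. For Ccnb1 this was the end of a 3′ UTR of 1028 bases, and a match elsewhere or at a shorter end would be missed. The 3′ UTR of Mcm4 was not searched. Aurka had neither AATAAA nor ATTAAA in the last 50 bases.
Bub1b, chr2:118641553-118641582, + strand: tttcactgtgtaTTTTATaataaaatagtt
Aurka, chr2:172356237-172356266, - strand: ttaaaggctattTTTTATgttggagttctg
Mcm2, chr6:88883491-88883520, - strand: ttgtagtttattTTTTAATagatttgaata
Ccne1, chr7:38097994-38098023, - strand: atgtctatcaatTTTTAATaaagataatac
Mcm7, chr5:138164614-138164643, - strand: catgctgcacttTTTTATtctgccaataaa

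None of these 5 genes was called between genotypes with all libraries, at adjusted p values averaged over treatments of 0.663 for Bub1b, 0.595 for Aurka, 0.494 for Mcm2, 0.355 for Ccne1 and 0.80 for Mcm7. Poly(A) tail length and translation, which CPEB1 acts on, were not measured here.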

How the data were processed

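RNA-seq of 12 libraries in 4 groups of 3 was used. The deposited tables hold expected counts per gene, not normalized between libraries by the authors, and TPM computed by the authors within each library. Per the submitters' processing notes, cutadapt, RSEM and mm10 were used; the sources used here name no versions and no aligner. The labels state 1 animal per replicate.

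Expected counts were rounded to whole numbers. Genes were kept by edgeR's filterByExpr (15295 of 23845), scaled by TMM and fitted with edgeR 4.0.16 in R 4.3.3 by the quasi-likelihood test, with 1 mean per group over 12 libraries and 8 residual degrees of freedom. Tests were two-sided at a Benjamini-Hochberg adjusted p of 0.05 over all tested genes. Averaged comparisons are contrasts of the same model. The SE is the absolute log2 change divided by the square root of F. Intervals are 95% and use the t quantile of 8 degrees of freedom. The tests also share spread between genes, so an interval can include 0 where the unadjusted p is under 0.05. Scripts were tested on simulated data.

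The genes, lists and tests were chosen with earlier results of these data known. In full, the text names every listed gene called in any comparison and the 2 with the highest mean TPM in each role, and at most 4 called genes per further list by smallest p. A few others were named after their values were seen.

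Same-numbered libraries of WT-LPS and WT deviated together (correlations of 0.38, 0.15 and 0.18 over genes), which pairs them by their data alone, since no label says that a number marks a shared batch. Of the 18 same-numbered pairs of all groups, 5 correlated above 0.1.

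Depth was 5.02 to 13.5 M counts. Positions come from GENCODE M21 and promoters from RefSeq GRCm38.p6. Alternatives were RLE size factors, DESeq2 1.42.0, no filter, a filter of 1 CPM, limma 3.58.1 on log2(TPM + 1) and log2(TPM + 0.1), fits of the compared groups alone, a replicate block and each library left out. The 27 gene names turned into dates were kept as deposited; none is a listed gene.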

Additional observations from a re-analysis of the deposited data

How the results depend on the processing

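Over the alternatives run, the 13 calls of listed genes had 265 values, of which 244 kept the call, 21 lost it and 0 changed sign, and 7 calls were kept under all alternatives: Cdkn1a in each LPS comparison, Mcm4 averaged and in wild type, and Mcm2 and Bub1b averaged. In WT-LPS against WT, limma on log2(TPM + 1) and on log2(TPM + 0.1) called 7 genes each against 3 by edgeR; Mcm5, Mcm6, Pcna and Rrm1 were added, and the median of all genes stood at 0.28 and 0.33 on those scales. With single libraries left out, the counts of calls ran from 1 to 2 in CPEB1-KO-LPS against CPEB1-KO, 2 to 5 in WT-LPS against WT and 5 to 10 for LPS averaged, and were 0 in the comparisons between genotypes and in the difference of responses. The count was 5 without WT-LPS replicate 1 in wild type, 1 in the knockout without CPEB1-KO-LPS replicate 1, CPEB1-KO replicate 1 or CPEB1-KO replicate 2, and 5 averaged without CPEB1-KO replicate 3. Without WT-LPS replicate 1 and WT replicate 1 together, chosen after seeing the data, the counts were 1 in CPEB1-KO against WT and 5 averaged over treatments, against 0 each. The causes were not tested. With the replicate block, the counts were 2 in CPEB1-KO-LPS against CPEB1-KO, 3 in WT-LPS against WT, 7 for LPS averaged and 0 between genotypes; Mcm5 averaged (0.58, adjusted p = 0.0539) was lost and no other call changed. Over all genes, DESeq2 called more than edgeR: 1606 against 952 in CPEB1-KO-LPS against CPEB1-KO, 80 against 1 in CPEB1-KO-LPS against WT-LPS, 510 against 5 in CPEB1-KO against WT, 285 against 1 in the difference of responses and 137 against 19 averaged over treatments. CPEB1-KO against WT had 1292 calls over all genes without WT replicate 1. The lowest counts in a library, where counting error is largest relative to the value, were 1 for Cdk1, 2 for Cdc6 and 2 for Bub1.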
